A study of Mus musculus with 10 samples.

Results

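The respiratory chain and ATP synthase genes described here are 50 listed genes of oxidative phosphorylation, of 53379 genes counted per library. They were chosen by name, and all 50 were found by Ensembl identifier. Of these, 37 are encoded in the nucleus and 13 in the mitochondrial genome, so the list holds a selection of the nuclear subunits and every protein-coding gene of mouse mitochondrial DNA.

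Oxidative phosphorylation passes electrons from NADH and succinate through complexes I and II to complex III, then through cytochrome c to complex IV, where oxygen is reduced. The protons pumped on the way drive complex V, the ATP synthase. Complex II is built from nuclear genes alone, and the other complexes combine nuclear subunits with subunits that are transcribed inside the organelle. Autophagy, for which Atg16l1 is needed at the step that attaches LC3 to membranes, is 1 route by which cells remove mitochondria.

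RNA was sequenced from dendritic cells of the spleens of individual C57BL/6 mice aged 16 weeks, in a series set in an atherosclerosis model. The groups were CD11b KO (n = 2), CD11b WT (n = 3), CD8 KO (n = 2) and CD8 WT (n = 3), where KO is the genotype Atg16l1 -/- and WT is Atg16l1 +/+. The labels name no Cre driver, deleted exon, diet or atherosclerosis-prone allele, so what limits the KO or its controls as a model is not known from them. Sorted cells carried much MHC class II and CD11c and were parted by CD11b and CD8, and libraries were made from 7 ng of total RNA with a stranded kit.

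The genotype labels matched the targeted gene, with Atg16l1 at 1.73 to 3.31 CPM (gene counts scaled to the library total) in the 4 KO libraries, against 13.3 to 32.7 CPM in the 6 WT libraries. The subset labels ran opposite to the markers in 10 of 10 libraries. Cd8a, a chain of CD8 itself, had 448 to 578 CPM at the label CD11b (5 libraries) and 0.905 to 5.87 CPM at the label CD8 (5 libraries), whereas Itgam, the gene of CD11b itself, had 1.58 to 2.73 CPM at the label CD11b and 76.1 to 104 CPM at the label CD8. All 11 markers of type 1 conventional dendritic cells (cDC1) were higher at the label CD11b in both genotypes and all 11 of type 2 cells (cDC2) were lower, so the groups keep their labels here and name no cell type. Libraries held 9467704 to 13768884 gene counts. In bulk RNA, fewer cells of a type and less RNA per cell cannot be told apart.

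The counts saw only part of the mitochondrial genome. After a filter on low counts, 44 of the 50 genes could be tested, namely all 37 nuclear genes and 7 of the 13 mitochondrial genes. The other 6, mt-Co2, mt-Atp8, mt-Atp6, mt-Co3, mt-Nd3 and mt-Nd4l, were listed at 0 in every library and lie side by side over 3161 bases of mitochondrial DNA (chrM:7013-10173, GRCm38). They encode 2 core subunits of complex IV (mt-Co2, mt-Co3), both mitochondrial subunits of complex V (mt-Atp6, mt-Atp8) and 2 of complex I (mt-Nd3, mt-Nd4l). Their counts of 0 stand beside abundant neighbours on each side, mt-Co1 at 1632 CPM and mt-Nd4 at 411 CPM on average over all 10 libraries.

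Near-identical copies of these genes are annotated as pseudogenes in 1 stretch of chromosome 1 (chr1:24611535-24616197, minus strand). The copy of mt-Co2, Gm28661, differed in 0 of 681 aligned bases, that of mt-Atp6, Gm10925, in 0 of 678, that of mt-Co3, Gm28437, in 0 of 783, and that of mt-Nd4l, Gm10222, in 0 of 294. The copy of mt-Nd3, Gm28438, differed in 1 of 345 bases, and the copy of mt-Nd4, Gm28439, matched the first 876 of 1378 bases without a difference. The copy of mt-Co1, Gm29216, began at base 1054 of 1545 and differed at 6 bases, the last at 1066, after which 479 bases were the same. A pseudogene of mt-Atp8 was not found in the annotation used, but mt-Atp8 lies between mt-Co2 and mt-Atp6 and the copy on chromosome 1 runs on both sides of that place. The 7 copies together had 15 counts over all libraries. Reads that map to more than 1 place, 21.73% to 25.53% of all reads, were not given to any gene.

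The starts of 2 of these pairs are shown because they hold every difference found between the copies and the genes, in capitals. Positions count from base 1 of each gene, and the differences are T3C between mt-Nd3 and its copy, and T1056A, C1057T, A1059G, A1060G, C1062A and A1066T between mt-Co1 and its copy, with the mitochondrial base first. The sequences are read from the GENCODE transcripts of GRCm38, at chrM:9459-9548 for mt-Nd3, chr1:24613030-24613119 (minus strand) for Gm28438, chrM:6381-6470 for mt-Co1 and chr1:24616108-24616197 (minus strand) for Gm29216.
mt-Nd3: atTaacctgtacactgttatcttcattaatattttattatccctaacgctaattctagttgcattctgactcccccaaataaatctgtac
Gm28438: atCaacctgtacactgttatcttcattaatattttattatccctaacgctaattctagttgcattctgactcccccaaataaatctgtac
mt-Co1: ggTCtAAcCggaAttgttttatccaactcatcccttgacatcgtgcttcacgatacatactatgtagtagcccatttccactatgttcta
Gm29216: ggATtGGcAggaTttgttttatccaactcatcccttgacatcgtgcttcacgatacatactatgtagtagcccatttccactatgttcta

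The copies bear on the levels of the genes that did get counts. Of all 50-base windows of a gene, 51.1% of those of mt-Co1 and 62.2% of those of mt-Nd4 were found letter for letter in the transcript of another gene, against 8.19% for mt-Nd2, 7.61% for mt-Nd5 and none for mt-Nd1, mt-Nd6 and mt-Cytb. Per kilobase of the whole gene, the mean levels over all libraries were 1060 CPM for mt-Co1, 821 for mt-Cytb, 755 for mt-Nd1, 518 for mt-Nd5, 299 for mt-Nd4, 252 for mt-Nd2 and 115 for mt-Nd6. Per 1000 windows that are not shared, mt-Co1 stood at 2230 CPM, mt-Cytb at 858, mt-Nd4 at 820, mt-Nd1 at 795, mt-Nd5 at 576, mt-Nd2 at 288 and mt-Nd6 at 127. The place of mt-Nd4 in the order of levels therefore depended on the length used. The comparisons between groups use the same countable bases in each library.

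**Figure D1:**
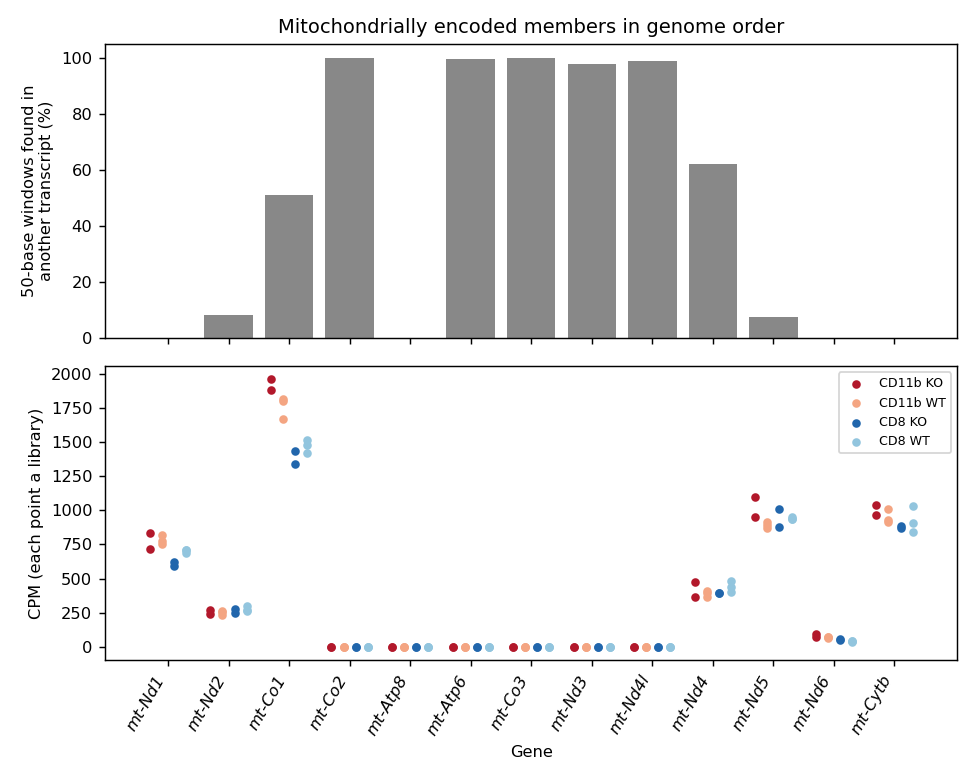
Upper panel: percent of the 50-base windows of each mitochondrial gene, in genome order, that occur in the transcript of another gene. Lower panel: CPM of the gene in each library, by group. The 6 genes from mt-Co2 to mt-Nd4l lie at 0 in all 10 libraries. For mt-Atp8 no pseudogene transcript is annotated, so its bar is at 0.

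Among the nuclear genes, 20 of 37 shared under 1% of their windows with another transcript and 11 shared over 10%. Atp5o, the oligomycin-sensitivity subunit of ATP synthase, had the highest share at 50.3%, followed by Ndufs3 at 39.7% and Cox5a at 32.0%, so levels of these genes are uncertain. The shares count both strands and include genes that overlap at the same place. For Cox5a, 174 of 191 shared windows were found in Gm26631, which overlaps it on chromosome 9. For Ndufs3, 354 of 396 were found in a pseudogene on chromosome 11. A share therefore does not say how many reads were lost. Per kilobase of all annotated exons, mean levels of the 37 nuclear genes had a median of 19.1 CPM. They lay between 2.58 CPM for Ndufc1, an accessory subunit of complex I, and 127 CPM for Atp5a1, the alpha subunit of ATP synthase. This order too depended on the length used. Per 1000 windows that are not shared, Atp5b stood at 190 CPM, Atp5a1 at 152 and Ndufc1 at 3.39. Ndufb7 stood at 51.8 CPM by that measure, against 6.58 CPM per kilobase of exon. The complex V genes had the highest median per kilobase, 53.9 CPM over 6 genes, against 15.5 CPM for the 15 complex I genes.

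Summed over each genome, the counts separated the subset labels for the nuclear genes. The 37 nuclear genes took 0.222% and 0.230% of gene counts in CD11b KO libraries and 0.243%, 0.233% and 0.243% in CD11b WT libraries, against 0.198% and 0.204% in CD8 KO libraries and 0.185%, 0.191% and 0.200% in CD8 WT libraries. All 5 libraries labelled CD11b lay above all 5 labelled CD8. Such a sum weighs each gene by its level, and Atp5a1 and Atp5b had the highest levels of the 37. They averaged 434 and 417 CPM at the label CD11b, against 362 and 285 CPM at the label CD8. The 7 counted mitochondrial genes took 0.515% and 0.562% in CD11b KO and 0.526%, 0.498% and 0.484% in CD11b WT, against 0.450% and 0.490% in CD8 KO and 0.492%, 0.468% and 0.473% in CD8 WT, and these ranges overlapped between labels.

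The ratio of mitochondrial to nuclear member counts was 2.32 and 2.44 in CD11b KO, against 2.17, 2.14 and 1.99 in CD11b WT. At the label CD8 it was 2.27 and 2.40 in KO, against 2.66, 2.44 and 2.37 in WT. The KO libraries thus lay above WT at the label CD11b, whereas KO and WT overlapped at the label CD8. Sums over chosen genes were not tested. The 2 mitochondrial ribosomal RNAs, which come from the same heavy-strand transcription, took 4.99% to 5.52% of gene counts.

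**Figure D2:**
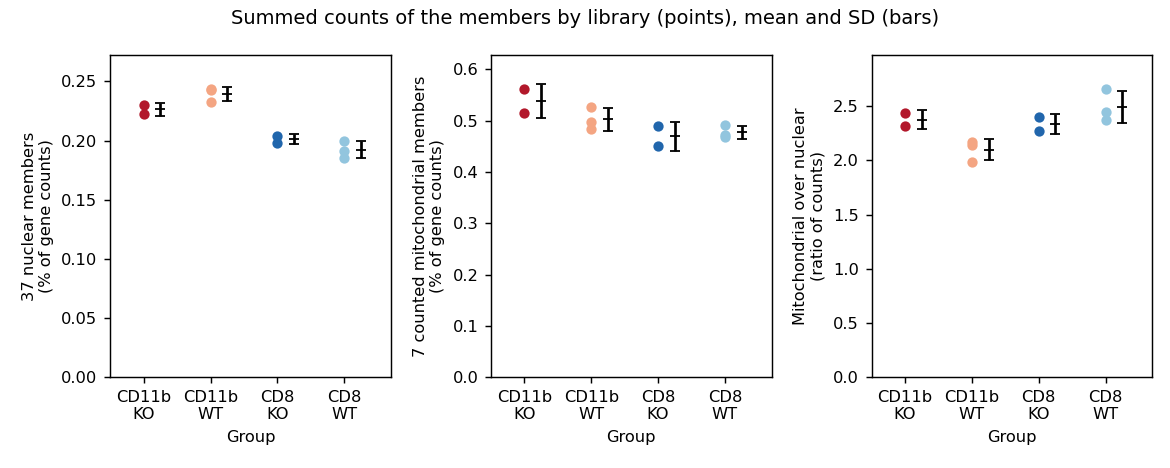
Summed counts of the 37 nuclear genes and of the 7 counted mitochondrial genes as percent of gene counts, and the ratio of the second sum to the first, by group. Points are libraries, and bars give the mean and SD (n = 2 or 3). The nuclear sum is at least 0.222% in each library labelled CD11b and at most 0.204% in each labelled CD8.

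Between the subset labels, nuclear respiratory chain genes were higher at the label CD11b where they were called at all. In KO mice, edgeR at an adjusted p under 0.05 called 3 of 37 nuclear genes (8.11%), all higher at the label CD11b. That share lay under the 10.3% called higher over all 14528 genes tested, of which 12.5% were lower (22.8% in either direction). The median log2 fold change of the 37 genes was 0.26, with 30 of 37 positive, against -0.01 over all genes, of which 49.4% were positive. The KO comparison rests on 2 libraries against 2.

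In WT mice, 12 of 37 nuclear genes were higher at the label CD11b and 0 were lower, where 29.5% of all genes tested were called, 13.8% higher and 15.7% lower. The median log2 fold change was 0.29 over the 37 genes, with 32 of 37 positive, against a median of 0.00 over all genes tested, of which 50.2% were positive. The difference of the label effects between genotypes, which is the same contrast as the difference of the genotype effects between labels, called 0 of 44 members.

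**Figure D3:**
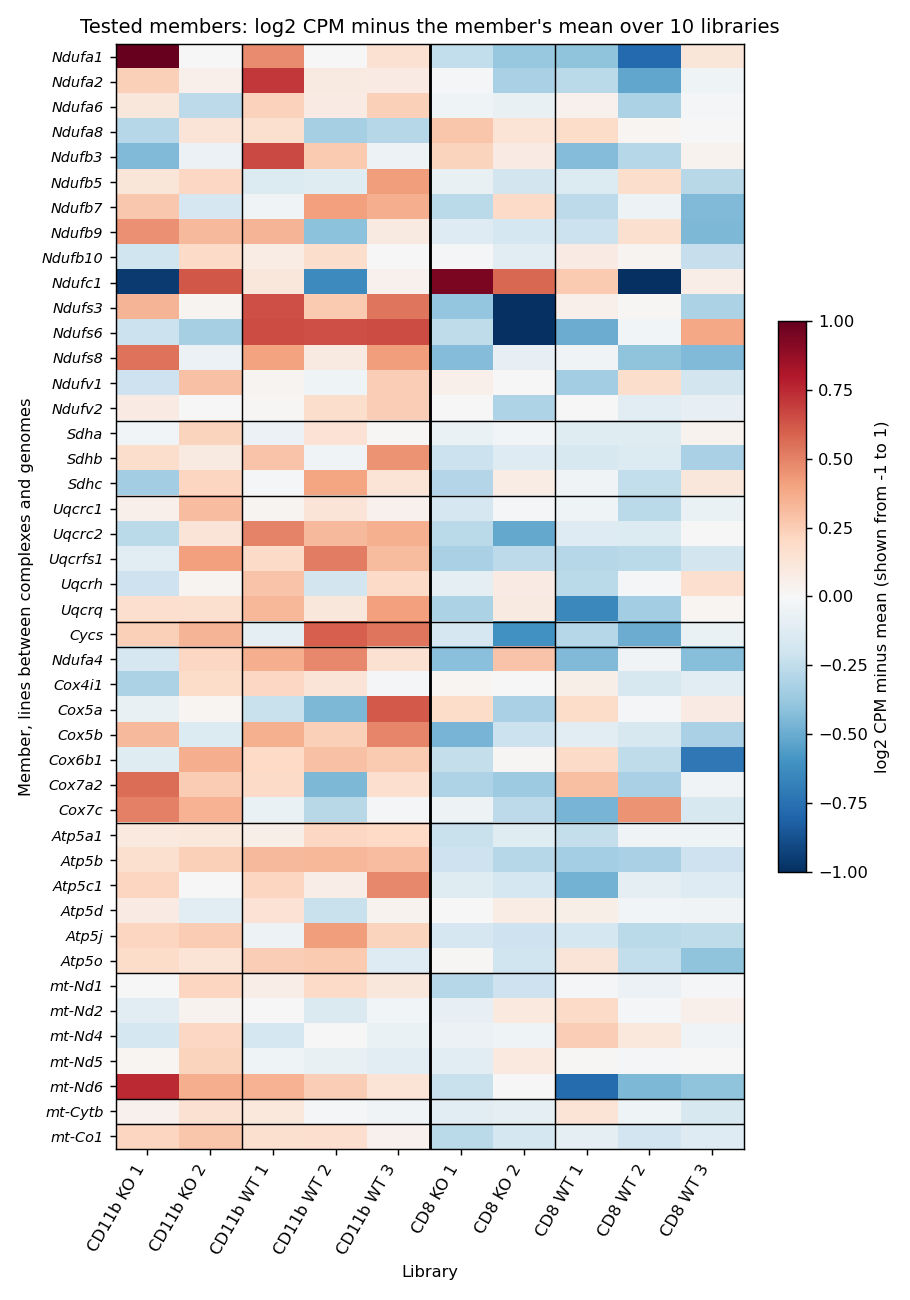
Log2 CPM of each of the 44 tested members minus its mean over the 10 libraries, with libraries grouped as CD11b KO, CD11b WT, CD8 KO and CD8 WT. Red is above and blue below the member's mean, and colours end at -1 and 1. Atp5b, Atp5a1, Uqcrfs1 and mt-Co1 are among the rows in which all 5 libraries labelled CD11b lie above all 5 labelled CD8.

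Among the nuclear genes, the smallest p in both genotypes belonged to a gene of complex V. Atp5b, the catalytic beta subunit of ATP synthase (ENSMUSG00000025393, chr10:128083273-128090391), had 384 and 407 CPM in CD11b KO and 431, 434 and 427 CPM in CD11b WT, against 299 and 282 CPM in CD8 KO and 271, 275.5 and 298 CPM in CD8 WT. Its level at the label CD11b was above that at the label CD8 in every library. The log2 fold change, CD11b over CD8, was 0.45 ± 0.10 in KO (SE, adjusted p = 0.00187 by edgeR) and 0.61 ± 0.08 in WT (SE, adjusted p = 2.69e-06 by edgeR). Atp5b was called in both genotypes under all 21 alternatives run for each.

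Atp5j, a subunit of the stalk (coupling factor 6), had 103 and 106 CPM in CD11b KO and 85.7, 118 and 104 CPM in CD11b WT, against 79.0 and 76.9 CPM in CD8 KO and 78.6, 73.5 and 74.5 CPM in CD8 WT. It was higher at the label CD11b by 0.42 ± 0.15 on the log2 scale in KO (SE, adjusted p = 0.0403 by edgeR) and 0.44 ± 0.12 in WT (SE, adjusted p = 0.00631 by edgeR). In KO the call ended when any of the 4 KO libraries was left out, with an adjusted p of up to 0.185 by edgeR over all alternatives. The call of Atp5j in KO also ended with no filter on low counts, with unstranded counts and without both CD11b WT 1 and CD8 KO 2. Its gene overlaps Gabpa on the other strand, and the comparisons use the counts of its own strand. Reads on the opposite strand were 8.54% of those on its own over all libraries.

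Atp5c1, the gamma subunit that turns within the catalytic head, had 112, 100.5 and 134 CPM in CD11b WT, against 69.0, 90.3 and 87.9 CPM in CD8 WT. Its log2 fold change was 0.26 ± 0.16 in KO (SE, adjusted p = 0.27 by edgeR) and 0.48 ± 0.13 in WT (SE, adjusted p = 0.00543 by edgeR), so it was called in WT, though not without CD11b WT 3 (adjusted p = 0.0536 by edgeR). Atp5a1, the alpha subunit and the nuclear member with the highest level, had 411.5, 456 and 453 CPM in CD11b WT, against 335, 386 and 385 CPM in CD8 WT, a log2 fold change of 0.26 ± 0.09 (SE, adjusted p = 0.028 by edgeR). These 4 of 6 complex V genes were called in WT (66.7%, against 13.8% called higher over all genes tested). In WT, Atp5d, the delta subunit, had a log2 fold change of -0.01 ± 0.11 (SE, adjusted p = 0.981 by edgeR). That of Atp5o was 0.29 ± 0.22 (SE, adjusted p = 0.366 by edgeR). The call of Atp5a1 ended without CD11b WT 2, without CD11b WT 3 or without CD8 WT 1, with an adjusted p of up to 0.131 by edgeR.

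In complex III, 1 of 5 nuclear genes was higher at the label CD11b in KO and 3 of 5 in WT. Over all genes tested, 10.3% were called higher in KO and 13.8% in WT. Uqcrfs1, the Rieske iron-sulfur protein, had 56.5 and 80.8 CPM in CD11b KO and 69.6, 86.8 and 75.7 CPM in CD11b WT, against 48.5 and 50.8 CPM in CD8 KO and 50, 50.6 and 53.5 CPM in CD8 WT. The label groups did not overlap, although CD11b KO 1 lay close to the CD8 libraries. The log2 fold change was 0.47 ± 0.17 in KO (SE, adjusted p = 0.0482 by edgeR) and 0.59 ± 0.14 in WT (SE, adjusted p = 0.00179 by edgeR). The call in KO ended under 9 of 21 alternatives, among them without CD11b KO 2, CD8 KO 1, CD8 KO 2, CD11b WT 3 or CD8 WT 3, where the adjusted p reached 0.641 by edgeR.

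Uqcrc2, a core protein of complex III, had 39.6 and 52.1 CPM in CD11b KO and 67.2, 59.6 and 61.0 CPM in CD11b WT, against 39.5 and 33.4 CPM in CD8 KO and 43.5, 43.4 and 47.4 CPM in CD8 WT. In KO its log2 fold change was 0.33 ± 0.17 (SE, adjusted p = 0.199 by edgeR), and in WT it was higher at the label CD11b by 0.48 ± 0.14 on the log2 scale (SE, adjusted p = 0.0108 by edgeR). Uqcrq, a small subunit that binds cytochrome b, had 55.7, 47.8 and 58.6 CPM in CD11b WT, against 28.3, 34.8 and 44.9 CPM in CD8 WT, a log2 fold change of 0.58 ± 0.17 (SE, adjusted p = 0.00891 by edgeR). Without CD8 WT 1 its adjusted p was 0.0546 by edgeR.

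Cytochrome c, encoded by Cycs, carries electrons between complexes III and IV. It had 17.7 and 19.0 CPM in CD11b KO and 14.1, 22.7 and 21.7 CPM in CD11b WT, against 13.3 and 9.84 CPM in CD8 KO and 12.3, 10.6 and 14.3 CPM in CD8 WT. The ranges of the labels met at CD11b WT 1, which lay below CD8 WT 3. The log2 fold change was 0.66 ± 0.30 in KO (SE, adjusted p = 0.127 by edgeR) and 0.65 ± 0.24 in WT (SE, adjusted p = 0.0479 by edgeR), and the call in WT ended under 10 of 21 alternatives, where the adjusted p reached 0.154. These 10 include 8 in which a single library was left out, namely any but CD11b WT 1 and CD8 WT 3.

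In complex IV, none of 7 nuclear genes was called in KO, and Cox5b was the 1 gene called in WT. That share in WT, 14.3%, was near the 13.8% called higher over all genes tested. Cox5b, a zinc-binding subunit of cytochrome c oxidase, had 51.2 and 37.1 CPM in CD11b KO, against 29.6 and 35.1 CPM in CD8 KO, a log2 fold change of 0.45 ± 0.19 (SE, adjusted p = 0.103 by edgeR). In WT mice it had 52.0, 48.0 and 57.3 CPM in CD11b WT, against 37.8, 36.5 and 32.6 CPM in CD8 WT, with a log2 fold change of 0.56 ± 0.15 (SE, adjusted p = 0.00779 by edgeR). Cox4i1, the complex IV gene with the highest level, had a log2 fold change of 0.18 ± 0.13 in WT (SE, adjusted p = 0.333 by edgeR).

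In complex II, Sdhb, the iron-sulfur subunit of succinate dehydrogenase, had 51.7, 41.6 and 58.1 CPM in CD11b WT, against 38.0, 38.7 and 34.0 CPM in CD8 WT, a log2 fold change of 0.45 ± 0.15 (SE, adjusted p = 0.024 by edgeR). Sdha, the flavoprotein that oxidises succinate, had a log2 fold change of 0.10 ± 0.10 (SE, adjusted p = 0.5 by edgeR). In complex I, 0 of 15 nuclear genes were called in KO and 2 of 15 in WT, although 14 of 15 were positive in WT. The 13.3% called in WT was near the 13.8% called higher over all genes tested, of which 50.2% were positive. Ndufs8, which binds iron-sulfur clusters, had 31.7, 25.6 and 32.1 CPM in CD11b WT, against 23.4, 18.2 and 17.7 CPM in CD8 WT, a log2 fold change of 0.59 ± 0.21 (SE, adjusted p = 0.0316 by edgeR). Ndufa2, an accessory subunit, had 36.1, 23.5 and 23.4 CPM in CD11b WT, against 18.4, 15.4 and 21.5 CPM in CD8 WT, a log2 fold change of 0.59 ± 0.21 (SE, adjusted p = 0.04 by edgeR). Leaving out 1 WT library ended the call of Sdhb in 3 of 6 cases (CD11b WT 1 or 3, CD8 WT 3, adjusted p up to 0.14 by edgeR), that of Ndufa2 in 3 (CD11b WT 1, CD8 WT 1 or 2, up to 0.262) and that of Ndufs8 in 4 (CD11b WT 1 or 3, CD8 WT 2 or 3, up to 0.114).

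**Figure D4:**
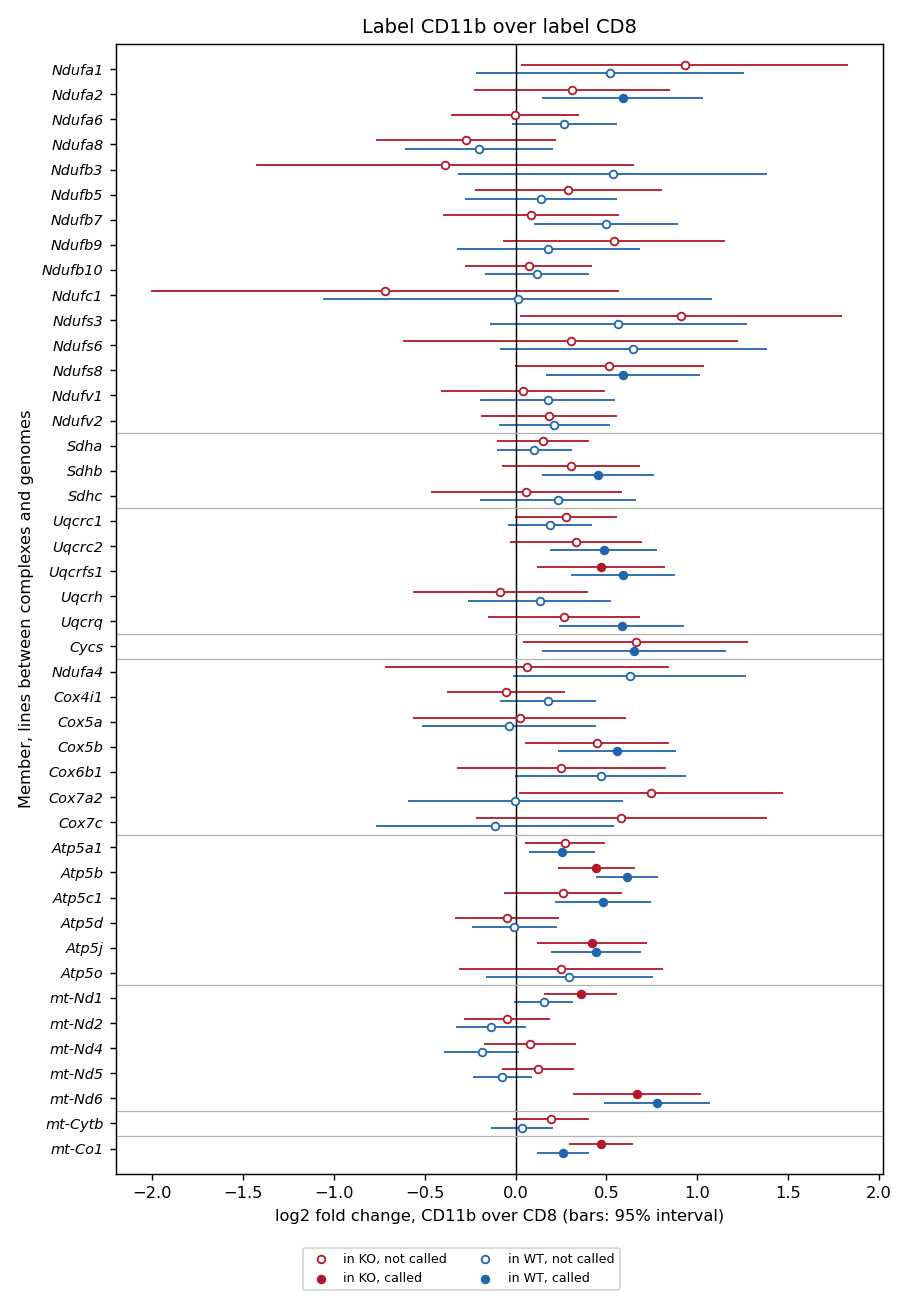
Log2 fold change of each tested member, label CD11b over label CD8, in KO and in WT, with 95% intervals from the edgeR fit. Filled points passed an adjusted p of 0.05. The filled nuclear points, 3 in KO and 12 in WT, all lie above 0.

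Of the 7 counted mitochondrial genes, 6 had a positive log2 fold change between the labels in KO and 4 in WT. In KO, 3 of 7 were higher at the label CD11b (mt-Co1, mt-Nd6, mt-Nd1), against 10.3% of all genes tested, and the median log2 fold change was 0.20. In WT, 2 of 7 were higher (mt-Co1, mt-Nd6), against 13.8% of all genes tested, and the median was 0.04. None was lower in either genotype. Of the 7, 6 lie on 1 strand of the mitochondrial DNA and are cut from a shared long transcript, whereas mt-Nd6 is the sole messenger of the other strand.

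mt-Co1, the catalytic subunit of complex IV, had 1881 and 1961 CPM in CD11b KO and 1804, 1817 and 1668 CPM in CD11b WT, against 1343 and 1433 CPM in CD8 KO and 1519, 1418 and 1477 CPM in CD8 WT. Every library labelled CD11b lay above every library labelled CD8. The log2 fold change was 0.47 ± 0.08 in KO (SE, adjusted p = 0.000157 by edgeR) and 0.26 ± 0.07 in WT (SE, adjusted p = 0.00504 by edgeR), and the call held in both genotypes under all 20 alternatives run. mt-Cytb, the mitochondrial subunit of complex III, had 965 and 1043 CPM in CD11b KO and 1009, 927 and 912.5 CPM in CD11b WT, against 871 and 882 CPM in CD8 KO and 1032, 909 and 840 CPM in CD8 WT. Its log2 fold changes of 0.20 ± 0.10 in KO (SE, adjusted p = 0.185 by edgeR) and 0.04 ± 0.08 in WT (SE, adjusted p = 0.811 by edgeR) were not called.

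mt-Nd1, a membrane subunit of complex I, had 718 and 834 CPM in CD11b KO, against 590 and 621 CPM in CD8 KO, a log2 fold change of 0.36 ± 0.10 (SE, adjusted p = 0.00771 by edgeR). The call ended without CD11b KO 2 or without CD8 KO 1, with an adjusted p of up to 0.202 by edgeR. In WT it had 753, 818.5 and 777 CPM at the label CD11b, against 712.1, 690.4 and 709 CPM at the label CD8, which did not overlap but gave a log2 fold change of 0.15 ± 0.08 that was not called (SE, adjusted p = 0.156 by edgeR). mt-Nd2, mt-Nd4 and mt-Nd5, which form part of the membrane arm of complex I, had log2 fold changes between -0.05 and 0.12 in KO and between -0.19 and -0.07 in WT, none called. Of the 2 ribosomal RNAs, mt-Rnr1 alone was called. It was higher at the label CD11b by 0.20 ± 0.06 on the log2 scale in KO (SE, adjusted p = 0.0217 by edgeR) and 0.18 ± 0.05 in WT (SE, adjusted p = 0.00998 by edgeR). The more abundant mt-Rnr2 had log2 fold changes of 0.05 in KO and 0.04 in WT. Its 5 libraries labelled CD8, with 36000 to 40000 CPM, enclosed the 5 labelled CD11b, with 37200 to 39800 CPM.

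mt-Nd6, a membrane subunit of complex I (ENSMUSG00000064368, chrM:13552-14070, minus strand), had 95.9 and 73.7 CPM in CD11b KO and 73.0, 67.8 and 63.2 CPM in CD11b WT, against 49.2 and 57.5 CPM in CD8 KO and 33.7, 41.9 and 43.3 CPM in CD8 WT. The 4 groups fell in that order, with every library labelled CD11b above every library labelled CD8. The log2 fold change, CD11b over CD8, was 0.67 ± 0.17 in KO (SE, adjusted p = 0.00504 by edgeR) and 0.78 ± 0.14 in WT (SE, adjusted p = 0.000124 by edgeR). Reads on the opposite strand of the same bases outnumbered those of mt-Nd6 itself, with 28844 against 6863 counts over all libraries. With strand ignored, the call ended in both genotypes, at a log2 fold change of 0.25 in KO (edgeR adjusted p = 0.173) and 0.12 in WT (edgeR adjusted p = 0.457). In KO it also ended without CD11b KO 1 or without CD8 KO 1.

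Of all tested members, 9 of 37 nuclear and 3 of 7 mitochondrial genes had all 5 libraries labelled CD11b above all 5 labelled CD8, and none had the reverse. Over all genes tested, 12.9% had every CD11b library above and 15.0% every CD11b library below. Other measures moved with the label as well. The share of reads that matched no gene feature on the strand counted was 33.1% to 38.03% at the label CD11b, against 37.46% to 41.44% at the label CD8. This share does not tell reads between genes from reads in introns or on the opposite strand. Of 9 B cell markers, 9 were lower at the label CD11b in KO and 7 in WT, and their summed level lay between 269 and 608 CPM at the label CD11b, against a range of 561 to 2720 CPM at the label CD8. Of 9 red pulp macrophage markers, 6 were lower in each genotype and 1 was higher in WT, with sums between 148 and 202 CPM at the label CD11b, against a range of 257 to 436 CPM at the label CD8. Of 4 tested monocyte markers, 1 was lower in KO and 2 in WT, and the sums over 5 markers lay between 22 and 31.6 CPM at the label CD11b, against a range of 42.3 to 87.1 CPM at the label CD8. Of 6 plasmacytoid dendritic cell markers, 2 were higher and 1 lower in KO and 3 were higher in WT, with sums between 99.0 and 166 CPM at the label CD11b, against a range of 96.8 to 135 CPM at the label CD8. No marker of these lists was at 0 in every library. Their part in the differences between the labels was not tested. Neutrophil, T and NK cell, and platelet markers summed to at most 3.83 CPM in any library, and erythroid markers to at most 19.0 CPM.

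The rest of the pathway was read from lists of the same kind, whose counts stand against 10.3% of all genes tested called higher and 12.5% lower at the label CD11b in KO, and 13.8% higher and 15.7% lower in WT. Of 42 tested respiratory chain and ATP synthase subunits that are not members, 6 were higher at the label CD11b in KO (14.3%, near the share over all genes) and 10 in WT (23.8%), with 0 lower in either, and the medians were 0.22 and 0.42 on the log2 scale. The smallest p in WT belonged to Atp5g3, a c-ring subunit of ATP synthase, at 0.85 ± 0.16 (SE, adjusted p = 0.000187 by edgeR), and to Ndufs4, an accessory subunit of complex I, at 0.68 ± 0.14 (SE, adjusted p = 0.000534 by edgeR). Of 76 tested mitochondrial ribosomal proteins, 3 were higher in KO (3.95%) and 9 in WT (11.8%), with 0 lower, so the shares higher were under those over all genes. Mrpl42 had the smallest p at 1.27 ± 0.21 in WT (SE, adjusted p = 3.84e-05 by edgeR).

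Genes around the chain went in both directions. Of 21 genes of mitophagy, dynamics and carriers, 8 were higher (38.1%, against 10.3% of all genes) and 1 lower (4.76%, against 12.5%) at the label CD11b in KO, and 7 were higher (33.3%, against 13.8%) and 1 lower (4.76%, against 15.7%) in WT. Atpif1, an inhibitor of ATP synthase running backwards, averaged 358 CPM in CD11b KO and 363 CPM in CD11b WT, against 96.5 CPM in CD8 KO and 109 CPM in CD8 WT, a log2 fold change of 1.89 ± 0.12 in KO (SE, adjusted p = 1.24e-11 by edgeR) and 1.73 ± 0.09 in WT (SE, adjusted p = 7.53e-13 by edgeR). Ucp2, a carrier of the inner membrane, averaged 1453 CPM in CD11b KO and 1431 CPM in CD11b WT, against 653 CPM in CD8 KO and 621 CPM in CD8 WT. The log2 fold changes of both genes were larger than that of any member in the same genotype.

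Of 17 genes of the TCA cycle and pyruvate dehydrogenase, 4 were higher and 3 lower at the label CD11b in each genotype, so 41.2% were called, against 22.8% of all genes in KO and 29.5% in WT. Cs, citrate synthase, was higher by 0.47 ± 0.10 in WT on the log2 scale (SE, adjusted p = 0.000966 by edgeR), whereas Mdh2, mitochondrial malate dehydrogenase, was lower, at 197 CPM in CD11b KO and 203 CPM in CD11b WT, against 645 CPM in CD8 KO and 660 CPM in CD8 WT on average (WT log2 fold change -1.70 ± 0.10, SE, adjusted p = 3.82e-12 by edgeR). Of 41 tested assembly factors, 3 were higher and 1 lower in KO (9.76% called) and 3 were higher and 2 lower in WT (12.2% called), shares below the 22.8% and 29.5% over all genes.

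Regulators of respiratory genes were lower at the label CD11b where called, with 3 of 9 in KO (33.3%, against 12.5% of all genes) and 4 of 9 in WT (44.4%, against 15.7%), and 0 were higher. Yy1 and Gabpb1, a zinc-finger factor and the partner of the ETS factor GABPA, had log2 fold changes in WT of -0.57 ± 0.11 (SE, adjusted p = 0.000367 by edgeR) and -0.83 ± 0.17 (SE, adjusted p = 0.000492 by edgeR). The smallest adjusted p of the 9 in WT, 4.68e-05 by edgeR, belonged to another regulator of the list. Of 22 genes that express or maintain the mitochondrial genome, 1 was higher in KO (4.55% called), and 1 was higher and 1 lower in WT (9.09% called), below the shares over all genes. Elac2, which trims the 3′ ends of tRNAs, averaged 100 CPM in CD11b KO and 101.5 CPM in CD11b WT, against 28.0 CPM in CD8 KO and 28.9 CPM in CD8 WT. Tfam, which packs mitochondrial DNA and starts its transcription, was lower in WT, with a log2 fold change of -0.78 ± 0.25 (SE, adjusted p = 0.0201 by edgeR).

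Promoters of the nuclear members, called or not, were searched for motifs known from respiratory genes, since the called members were higher together at 1 label. RefSeq (GRCm38.p6) gave a window for 30 of the 37 nuclear members and for 27025 genes in all, and the 250 bases before each annotated start were read on both strands. The core of the NRF1 motif, GCATGCGC, was in a window of 4 of 30 members (13.3%), against 2.56% of all genes. The ETS core CCGGAAG was in 5 of 30 (16.7%), against 7.83%, and the YY1 motif AAGATGGCG was in 1 of 30, against 0.71%. The CCAAT box was in 11 of 30 (36.7%), against 37.5%, and the ERR motif TCAAGGTCA was in 0 of 30, against 0.422%. Among the 8 members called in WT that had a window, 2 held the NRF1 core and 5 a CCAAT box. A match to these letters is a description of the window.

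Where a gene had more than 1 window, the window with most motif matches was taken for printing. The windows of Atp5b, Uqcrfs1 and Cycs show how unlike the promoters of called members are. Each is printed 5′ to 3′ on the strand of its gene, without bases that GENCODE counts to an exon of that gene, and capitals mark every match to the 5 motifs, which did not overlap each other here. Atp5b (chr10:128083057-128083272) held 5 CCAAT boxes, 1 of them in reverse and so written ATTGG, Uqcrfs1 (chr13:30545363-30545566, minus strand) held no match, and Cycs (chr6:50566570-50566819, minus strand) held the NRF1 core and 1 CCAAT box.
Atp5b: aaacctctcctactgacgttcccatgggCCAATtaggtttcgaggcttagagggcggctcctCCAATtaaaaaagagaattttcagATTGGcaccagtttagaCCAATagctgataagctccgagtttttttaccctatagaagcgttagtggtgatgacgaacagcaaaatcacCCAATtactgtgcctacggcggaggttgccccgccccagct
Uqcrfs1: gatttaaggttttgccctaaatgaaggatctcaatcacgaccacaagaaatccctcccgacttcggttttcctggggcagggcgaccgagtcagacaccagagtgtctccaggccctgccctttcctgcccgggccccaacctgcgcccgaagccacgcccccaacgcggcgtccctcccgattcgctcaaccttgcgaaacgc
Cycs: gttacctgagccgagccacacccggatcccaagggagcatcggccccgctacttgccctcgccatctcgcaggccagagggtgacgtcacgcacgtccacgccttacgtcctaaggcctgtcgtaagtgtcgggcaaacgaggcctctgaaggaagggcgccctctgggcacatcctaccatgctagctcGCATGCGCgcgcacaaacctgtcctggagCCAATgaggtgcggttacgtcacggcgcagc

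Loss of Atg16l1 left no member past the threshold. KO against WT called 0 of 44 members with edgeR at the label CD11b, 0 at the label CD8, 0 for the mean of both labels and 0 for the difference between labels, and in each DESeq2 and limma-voom also called 0. Few genes were called in all, with 0.145% of genes tested at the label CD11b, 0.145% at the label CD8, 0.289% for the mean and 0.0206% for the difference, so a count of 0 among 44 is near that background. At an unadjusted p of 0.05, 4 members passed at the label CD11b, 2 at the label CD8, 3 for the mean and 0 for the difference, against 6.42%, 6.52%, 8.43% and 5.46% of all genes. By DESeq2 these numbers were 3, 2, 3 and 1, and by limma-voom 5, 2, 5 and 3. At the label CD8, B cell markers summed to 1020 to 2720 CPM in KO, against 561 to 1130 CPM in WT. Red pulp macrophage sums there were 427 to 436 CPM in KO, against 257 to 349 CPM in WT. Monocyte sums were lower, at 42.3 to 50.2 CPM in KO, against 56.3 to 87.1 CPM in WT. At an unadjusted p under 0.05 by edgeR, 9 of 9 B cell and 5 of 9 macrophage markers were higher, and 0 were called. Their part in the genotype comparisons was not tested.

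The intervals show what sizes of change the libraries leave room for. For the mean over both labels, with 4 KO and 6 WT libraries, the 95% interval of the log2 fold change lay within a 1.5-fold change in either direction for 30 of 37 nuclear genes and 6 of 7 mitochondrial genes, and within a 2-fold change for 34 of 37 and 7 of 7. At the label CD11b alone, 19 of 37 nuclear genes had an interval within 1.5-fold, and at the label CD8 22 of 37. The widest interval for the mean reached from -0.29 to 1.37 for Ndufc1, the member with the lowest level. The median log2 fold change of the nuclear genes was -0.11 at the label CD11b and 0.03 at the label CD8, against -0.01 and 0.00 over all genes tested. That of the mitochondrial genes was 0.11 at the label CD11b and -0.08 at the label CD8.

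**Figure D5:**
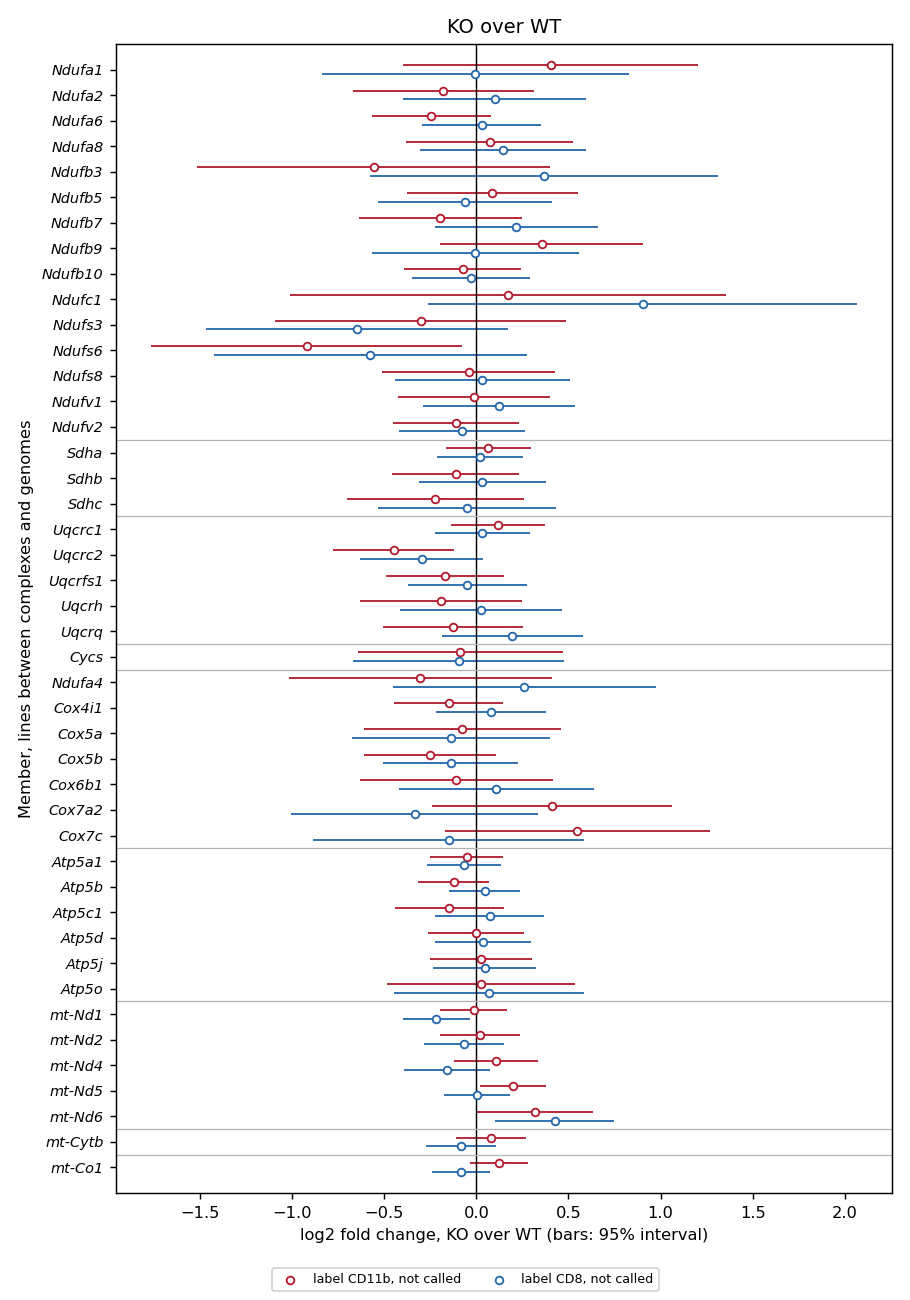
Log2 fold change of each tested member, KO over WT, at the label CD11b and at the label CD8, with 95% intervals from the edgeR fit. Every point is open because none passed an adjusted p of 0.05. The intervals of the mitochondrial genes are narrow beside those of low nuclear genes such as Ndufc1.

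The member with the smallest p for the mean genotype effect was mt-Nd6. Its log2 fold change, KO over WT, was 0.32 ± 0.15 at the label CD11b (SE, adjusted p = 0.779 by edgeR), 0.43 ± 0.16 at the label CD8 (SE, adjusted p = 0.564 by edgeR) and 0.37 ± 0.11 for the mean (SE, adjusted p = 0.213 by edgeR). The values per library above show both KO libraries over all 3 WT libraries at each label, and none of these contrasts passed the threshold. Over the alternatives the mean log2 fold change lay between 0.14 and 0.46 and its adjusted p by edgeR or another tool between 0.0834 and 0.709. With strand ignored, the log2 fold change was 0.20 at the label CD11b, 0.07 at the label CD8 and 0.14 for the mean (adjusted p = 0.709 by edgeR for the mean). mt-Nd5 and mt-Nd1, which had an unadjusted p under 0.05 at 1 label each, had log2 fold changes of 0.20 ± 0.09 at the label CD11b (SE, adjusted p = 0.726 by edgeR) and -0.22 ± 0.09 at the label CD8 (SE, adjusted p = 0.646 by edgeR).

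Among nuclear genes, Uqcrc2 had the smallest p. Its levels, given above, put both KO libraries below all 3 WT libraries at each label, with a log2 fold change of -0.45 ± 0.16 at the label CD11b (SE, adjusted p = 0.615 by edgeR), -0.30 ± 0.16 at the label CD8 (SE, adjusted p = 0.812 by edgeR) and -0.37 ± 0.11 for the mean (SE, adjusted p = 0.253 by edgeR). Ndufs6, an accessory subunit of complex I, had 5.25 and 4.83 CPM in CD11b KO, against 9.57, 9.51 and 9.58 CPM in CD11b WT, and 5.11 and 3.05 CPM in CD8 KO, against 4.32, 5.98 and 7.95 CPM in CD8 WT. KO and WT did not overlap at the label CD11b but did at the label CD8, and the mean log2 fold change was -0.75 ± 0.29 (SE, adjusted p = 0.465 by edgeR).

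In complexes II, IV and V no member had an unadjusted p under 0.05 for KO against WT at either label. Atp5b, the nuclear gene with the smallest p between the subset labels, had a log2 fold change of -0.12 ± 0.09 at the label CD11b (SE, adjusted p = 0.882 by edgeR) and 0.05 ± 0.09 at the label CD8 (SE, adjusted p = 1 by edgeR), with 95% intervals of -0.32 to 0.07 and -0.15 to 0.24. For the difference of the genotype effects, CD11b minus CD8, mt-Co1 had the smallest p of the 44 members at 0.21 ± 0.11 (SE, adjusted p = 0.933 by edgeR). All 6 tested heavy-strand genes had a positive difference, between 0.09 and 0.27 on the log2 scale, as had 48.4% of all genes tested. These 6 genes share 1 transcript, so they are not separate observations.

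The other lists of the pathway held 1 call for genotype. Of 42 non-member subunits, 41 assembly factors, 22 genes of mitochondrial genome expression, 9 regulators, 17 genes of the TCA cycle, 21 of mitophagy and carriers and 76 mitochondrial ribosomal proteins, edgeR called Cox6a2 alone, a heart and muscle form of a complex IV subunit, at the label CD8 and for the mean. Cox6a2 had 6.26 and 3.08 CPM in CD11b KO, against 1.21, 1.89 and 0.558 CPM in CD11b WT, and 5.93 and 8.88 CPM in CD8 KO, against 0, 0.815 and 0 CPM in CD8 WT. The mean log2 fold change was 3.28 ± 0.62 (SE, adjusted p = 0.0152 by edgeR), which rests on 0, 9 and 0 counts in CD8 WT.

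All 953 bases of Cox6a2 (chr7:128205435-128206387, minus strand) lie inside Itgad, an integrin gene of the other strand that spans chr7:128154376-128223816. Itgad had 164 and 269 counts in CD11b KO, against 60, 22 and 19 in CD11b WT, and 894 and 963 counts in CD8 KO, against 90, 41 and 62 in CD8 WT. Over the bases of Cox6a2, the strand of Itgad had 19 and 35 counts in the CD8 KO libraries, against 72 and 102 on the strand of Cox6a2. Cox6a2 is uncertain as an overlapping gene, and the part of Itgad in its counts was not tested.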

How the data were processed

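RNA was sequenced from 10 libraries in 4 groups, set by the labels. The submitters' processing notes name STAR 2.5.0a and GRCm38. The authors deposited raw counts of reads per gene, without regard to strand and for each strand, and the annotation release, trimming and duplicate handling are not given in the sources used here. The strand column used summed to 16.1 times the opposite one. GENCODE M21 (GRCm38) named 53274 of 53379 identifiers, the other 105 having no match. Each file also lists 4 lines of reads given to no gene, which stayed out of library sizes and tests. Of all reads, 33.1% to 41.44% matched no gene feature on the strand counted, and 21.73% to 25.53% mapped to several places.

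Library sizes were scaled by TMM to give CPM. The filter filterByExpr, by group, left 14528 genes. All libraries entered 1 quasi-likelihood fit in edgeR 4.0.16 with a mean for each of the 4 groups, so that groups of 2 share the spread of all (6 residual and 16.1 prior degrees of freedom, common dispersion 0.0862). P-values were two-sided, adjusted by Benjamini-Hochberg over all genes tested and called under 0.05. SE and 95% intervals were derived from the F statistic. Alternatives were DESeq2 1.42.0, limma-voom (limma 3.58.1), RLE size factors, other filters, unstranded counts, removal of mitochondrial and rRNA genes, fits of the compared libraries alone, replicate blocks and each library left out. The software was R 4.3.3 with Python 3.11.15.

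The members, lists and tests were chosen with earlier results of these data known, and a fit without CD11b WT 1 and without CD8 KO 2 was added for that reason. Called members could all be named, and otherwise the 1 or 2 with the smallest p per complex and genome, those at the extremes of level, and up to 4 called genes per pathway list. Per the labels' protocols the spleens came from individual mice, but same-numbered libraries are not said to share a mouse. The counts are of reads rather than of molecules, and CPM of low genes is limited by counting error.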

Additional observations from a re-analysis of the deposited data

Results flagged for a closer look

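Reads on the strand opposite to a member, which enter no comparison, were at least 10% of the reads on its own strand for 3 of the 44 tested members. mt-Nd6 had 28844 counts on the opposite strand, which is 259% to 740% of its own counts in a library. By CPM this opposite-strand signal was 249 and 316 in CD11b KO and 247, 205 and 267 in CD11b WT, against 240.1 and 281 in CD8 KO and 249, 244 and 247 in CD8 WT, so the labels overlapped on that strand while they did not on the strand of mt-Nd6. mt-Nd5 had 14914 counts on the opposite strand, with 191 and 169 CPM in CD11b KO and 138, 140.2 and 128 CPM in CD11b WT, against 115 and 115 CPM in CD8 KO and 101, 99.85 and 113 CPM in CD8 WT. There each KO group lay above the WT group of its label and both CD11b groups above both CD8 groups, and no test was run. Cox5b had 565 counts on the opposite strand, 7.69% to 16.4% of its own.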

How the results depend on the processing

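The counts for KO against WT stayed at 0 under every alternative run. In KO, 1 to 4 nuclear and 1 to 3 mitochondrial members were called between the labels when 1 library was left out, the lowest nuclear count without CD8 KO 1 or CD8 KO 2 and the lowest mitochondrial count without CD8 KO 1. The nuclear count in KO was also 1 with no filter on low counts, 1 with unstranded counts and 1 without both CD11b WT 1 and CD8 KO 2. In WT, 7 to 12 nuclear members were called when 1 library was left out, lowest without CD11b WT 3, and 1 mitochondrial member was called with unstranded counts. The causes were not tested. Leaving out a library lowers the number of samples and also changes which genes pass the filter. Over all alternatives, values of named members kept their direction and side of the threshold in 537 cases, lost a call in 50 and reversed in none. Atp5b and mt-Co1 were called in both genotypes throughout, as were Uqcrfs1, Uqcrc2, Cox5b and Atp5j in WT. In KO the call of Uqcrfs1 ended under 9 and that of Atp5j under 7 of 21 alternatives, and that of mt-Nd1 under 2 and mt-Nd6 under 3 of 20. The 13 pairs of libraries with the same replicate number correlated between -0.0373 and 0.0594 in their deviations from group means. The 5 of these pairs that share a genotype, and so could share a mouse, correlated between 0.0182 and 0.0491. All lay under the 0.1 needed here, so the numbers were not taken to pair libraries. In groups of 2 the deviations mirror each other, so these correlations cannot decide whether libraries share a mouse. With the replicate number as a block, 4 nuclear and 3 mitochondrial members were called in KO and 12 and 2 in WT. With genotype and number as a block these were 4 and 3 in KO and 13 and 2 in WT, and KO against WT stayed at 0. With unstranded counts the mitochondrial share of gene counts averaged 0.578% in CD11b KO and 0.535% in CD11b WT, and 0.498% in CD8 KO and 0.505% in CD8 WT. Without rRNA genes in the total, the nuclear share was 0.239% in CD11b KO and 0.254% in CD11b WT, and 0.212% in CD8 KO and 0.203% in CD8 WT, and the mitochondrial share was 0.533% in CD11b WT and 0.504% in CD8 WT. Groups of 2 or 3 libraries limit what can be called, and the widest intervals for the mean genotype effect were those of Ndufc1, Ndufb3 and Ndufs6.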
